A study of Mus musculus with 8 samples.

Results

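The comparison set the starting, PU.1-low state of the mouse acute myeloid leukaemia line AML246 against the PU.1-low state to which the same cells came back after PU.1 had been restored and then withdrawn. Summits of accessible chromatin from the day 0 library (36041) and from the library taken 12 days off doxycycline (31867) were widened by 150 bp both ways, and overlapping ones were merged across these lists alone. This gave 41065 regions, out of 68800 when all 8 lists of the series were merged. A region counted as open wherever a list had a summit in it. By this rule 26154 regions (63.7%) were open in both, 9552 (23.3%) only at day 0 and 5359 (13.1%) only at 12 days off.

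PU.1, encoded by Spi1, is an ETS-family transcription factor that drives the differentiation of myeloid cells, and it can open chromatin at enhancers that other factors then occupy. Low PU.1 activity holds myeloid progenitors in an immature state and favours leukaemia. In ATAC-seq a transposase cuts accessible DNA, so a peak summit marks a point where many cuts fell, typically a promoter or an enhancer.

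The cells grew in IMDM with 10% FCS and IL-3. Doxycycline (Dox) was given at 0.1 µg/mL from day 0 and removed on day 12; per the labels it restores PU.1, and its removal brings the knockdown back. The day 0 sample was untreated, and the sample called 12 days off had 12 days on Dox followed by 12 days without it, which is day 24 of the course. Both were total viable cells isolated by FACS. The other 6 samples (4, 8 and 12 days into Dox, day 12 cells sorted for high CD11b, and 4 and 8 days off) are used below only to place the differing regions in the course. Whether the line is clonal, and which promoter drives the Dox-controlled construct, was not stated in the labels used.

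Every group held 1 library, so no difference below has a replicate check and no test was run. The intervals are exact Clopper-Pearson 95% intervals on shares of regions that speak of counting error alone; regions that lie close together are not independent. Peaks were called library by library, so a region without a summit was not called there and is not shown to be closed. A lower share of open cells and weaker opening in each cell cannot be told apart in such bulk samples. The lists held between 31867 and 51060 summits, and the list of 12 days off was the shortest. Scores, read as −log10 of a p or a q, are compared only by rank, since they move with read depth, a quantity that none of the sources used here gives. The lists do not measure Spi1 RNA or protein, so that the level of PU.1 was low at both times rests on the labels. As a check of the cell type, 19 of 20 myeloid transcription factor genes, 15 of 20 monocyte and macrophage genes and 14 of 20 neutrophil and granulocyte genes had a region in at least 1 of the lists. So had 7 of 13 B cell genes and 12 of 16 T cell genes, so that a region near a gene does not tell the cell type. Genes without a region in either list included Mpo, Elane and Cd14 of the myeloid lists and Cd79a, Cd79b and Ms4a1 of the B cell list. Shared regions lay at 10 monocyte and macrophage genes, such as Lyz2, and at 8 neutrophil and granulocyte genes, such as Prtn3 and Camp. They also lay at 5 B cell genes, such as Pax5 and Bach2, and at Spi1, Kit, Cd34 and Runx1. A region counts for its nearest gene alone, so a gene without one may have open chromatin beside it.

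Most of the original landscape was found again. Of the day 0 regions, 73.2% (95% interval 72.8 to 73.7) were open at 12 days off, and 82.99% (82.6 to 83.4) of the regions of 12 days off were open at day 0. Within the shared regions the summits lay a median of 24 bp apart, and 69.5% lay within 50 bp. The longer day 0 list moves these shares in opposite directions. Limiting it to its 31867 highest scores, which raised its lowest score from 1.33 to 4.62, left 38382 regions, of which 24814 (64.7%) were shared. In that comparison 6863 regions (17.9%) were open only at day 0 and 6705 (17.5%) only at 12 days off, and the shares of each list found in the other became 78.3% and 78.7%. Lists cut to the same length must give nearly as many differing regions in each direction, so this balance follows from the cut. Whether the excess of day 0 regions in the deposited lists goes beyond the longer list cannot be told from it.

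The differing regions came from the low end of both lists. Regions open only at day 0 had a median score of 6.33, against 16.7 for the day 0 scores of shared regions, and a median percentile of 22.6 in their list. Regions open only at 12 days off had a median score of 5.39 (percentile 19.4), against 12.2 for shared regions. In the highest 10% of the day 0 list 98.6% of regions were open at 12 days off, and in the lowest 10% 33.2% were. The same shares of the list of 12 days off were 98.9% and 48.7%. With equal numbers of summits the lowest 10% of each list gave 44.6% and 36.7%. Only 50 regions open only at day 0 and 37 open only at 12 days off ranked in the top 10% of their list, and each of them had a summit of the other list within 1 kb.

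**Figure D1:**
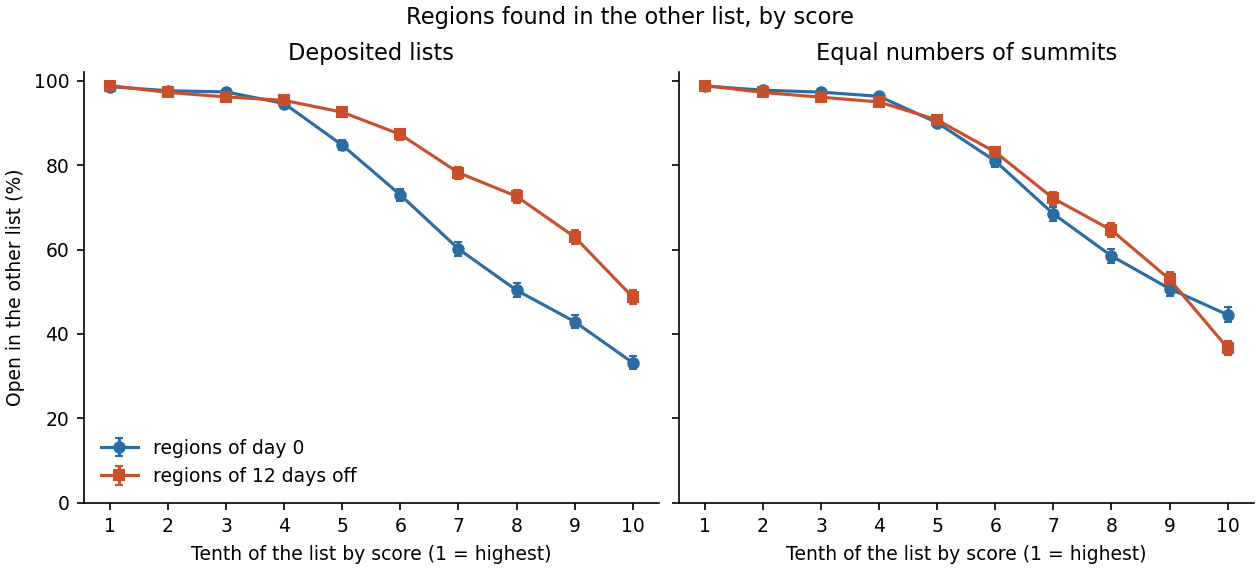
Share of the regions of each list (y axis, percent) that were open in the other list, by steps of 10% of the list ranked by score (x axis, step 1 = highest), for the deposited lists on the left and for equal numbers of summits on the right. Circles are day 0, squares 12 days off, and bars exact 95% intervals. The share falls from 98.6% to 33.2% for day 0 and from 98.9% to 48.7% for 12 days off in the deposited lists, and the curves lie close together at equal numbers.

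Some differing regions lay close to a summit of the other list, which can belong to a neighbouring shared region. Of the regions open only at day 0, 7982 (83.6%) had no summit of the other list within 1 kb, and of those open only at 12 days off, 3650 (68.1%). With equal numbers of summits in both lists these were 5707 (83.2%) and 4920 (73.4%). The regions with a nearby summit lay at gene ends more often: 42.0% of those open only at day 0 and 50.7% of those open only at 12 days off were within 1 kb of either end of a protein-coding gene. Without a nearby summit these shares were 8.17% (7.58 to 8.79) and 7.23% (6.41 to 8.12). Over all differing regions 13.7% and 21.1% were near a gene end, beside 36.1% of shared regions. The apparent tilt of 12 days off towards gene ends was thus not there among regions without a nearby summit, where both classes were mostly far from gene ends. Gene ends, and not start sites, were used because the gene table gives no strand, and exons and introns were not analysed here because it gives no exons.

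Promoter windows were compared next. Of 32817 windows of 250 bases before to 50 after a RefSeq gene start (build GRCm38.p6, also called mm10), 7372 held a summit of both lists and 2065 a summit of a single list, which is 21.9% of the 9437 with any summit. In 929 windows with a summit of day 0 alone and in 751 with a summit of 12 days off alone, the other list had a summit within 1 kb. A summit of day 0 alone, with none of 12 days off within 1 kb of the window, was found in 289, and the reverse in 96 (214 and 96 with the day 0 list limited to equal numbers; the longer full day 0 list still makes the 1 kb limit stricter for 12 days off). The sequences below are taken from the 4 highest-scoring windows of each differing class, and from a high-scoring shared window, and hold at least 1 of 10 motifs searched on both strands, and they show which letters lie upstream of genes whose start differed. Each is the 250 bases before the start, 5′ to 3′ on the gene's strand, in RefSeq's sequence of that build. Capitals mark motif letters. These were ETS (CCGGAAGT), a form that most ETS factors bind, and GAGGAAGT, the purine-rich form that PU.1 prefers. Further ones were NRF1 (GCGCATGCG), C/EBP (TTGCNNAA), IRF (GAAANNGAA) and a CTCF core (CNAGGNGGC). The site of RUNX factors, which set up blood cell fate, was written as TGTGGTT. For AP-1, the FOS and JUN dimers that answer growth and stress signals, TGANTCA was searched. It is looser than the TGAGTCA or TGACTCA that these dimers prefer, so the AP-1 shares take in other forms. The letters marked at Uba1 (TGATTCA) and Nasp (TGAATCA) are such other forms. The family of GATA factors, known for erythroid and mast cell genes, was given AGATAA. The E-box of MYC and related helix-loop-helix factors was CACGTG. The ETS and PU.1 forms share their last bases, and no window position can match both.

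Tmem185a, open only at day 0, chrX:70477181-70477430, minus strand, NRF1 letters: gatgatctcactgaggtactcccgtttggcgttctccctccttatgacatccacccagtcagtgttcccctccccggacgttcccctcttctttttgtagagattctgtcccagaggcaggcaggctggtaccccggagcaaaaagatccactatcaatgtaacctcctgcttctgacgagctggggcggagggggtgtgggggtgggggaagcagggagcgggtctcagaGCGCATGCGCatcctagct
Uba1, open only at day 0, chrX:20662646-20662895, plus strand, AP-1 letters: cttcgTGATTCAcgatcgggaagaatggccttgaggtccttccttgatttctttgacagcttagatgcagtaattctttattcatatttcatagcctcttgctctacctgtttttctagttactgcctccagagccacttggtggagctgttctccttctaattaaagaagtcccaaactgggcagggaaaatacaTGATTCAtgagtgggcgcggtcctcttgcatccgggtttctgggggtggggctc
Nasp, open only at 12 days off, chr4:116627952-116628201, minus strand, AP-1 and GATA letters: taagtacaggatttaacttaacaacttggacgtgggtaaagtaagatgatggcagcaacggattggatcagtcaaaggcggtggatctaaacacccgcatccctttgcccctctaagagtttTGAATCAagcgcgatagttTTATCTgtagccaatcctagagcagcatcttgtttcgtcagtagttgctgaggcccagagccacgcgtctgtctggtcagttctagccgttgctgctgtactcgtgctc
Cdh15, open only at 12 days off, chr8:122848124-122848373, plus strand, E-box letters: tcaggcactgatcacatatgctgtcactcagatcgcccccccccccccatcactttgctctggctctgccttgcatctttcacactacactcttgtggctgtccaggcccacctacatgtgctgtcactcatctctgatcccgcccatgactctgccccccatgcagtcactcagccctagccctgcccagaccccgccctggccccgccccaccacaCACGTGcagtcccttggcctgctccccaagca
Hjurp, open in both, chr1:88277580-88277829, minus strand, ETS letters: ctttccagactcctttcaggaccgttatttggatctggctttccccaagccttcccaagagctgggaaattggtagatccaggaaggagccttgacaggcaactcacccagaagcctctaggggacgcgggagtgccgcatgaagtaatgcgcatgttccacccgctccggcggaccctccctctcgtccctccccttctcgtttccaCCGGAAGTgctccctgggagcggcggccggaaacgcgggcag

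At the Hjurp window, which belongs to a chaperone of the centromeric histone, the score was 95.5 at day 0, 88.4, 88.8 and 50.6 at day 4, 8 and 12 on, 58.2 in CD11b-high cells, 87.5 and 82.8 at 4 and 8 days off and 67.5 at 12 days off. The windows that differed scored far lower. Tmem185a, a membrane protein gene, had a summit at day 0 (20.4), day 4 (18.4) and day 12 on (12.0) and in no other library. Uba1, the main ubiquitin-activating enzyme, scored 18.5 at day 0, 20.5 and 13.3 at day 4 and 8 on, 7.41 and 15.3 at 4 and 8 days off and 4.31 in CD11b-high cells, and had no summit at day 12 on or at 12 days off. Cdh15, a cadherin gene, had a summit at day 8 on (6.04) and at 4, 8 and 12 days off (5.88, 9.02 and 11.1), and none at day 0, day 4 or day 12 or in CD11b-high cells.

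Motif letters differed between the promoter classes. ETS letters were in 10.9% (10.2 to 11.6) of the shared promoter windows, in 1.73% (0.564 to 3.99) of those open only at day 0, in 1 of 96 open only at 12 days off, and in 3.89% of all windows. AP-1 letters were in 14 of 96 windows open only at 12 days off (14.6%, 8.21 to 23.3), in 4.15% (2.16 to 7.14) of those open only at day 0, in 4.31% of shared windows and in 7.81% of all windows. RUNX letters were in 12 of 96 windows open only at 12 days off (12.5%, 6.63 to 20.8), in 4.84% (2.67 to 7.99) of those open only at day 0, in 3.68% of shared and in 5.27% of all windows. PU.1 letters were in 5.21% (1.71 to 11.7), 2.42% (0.979 to 4.93), 3.39% and 3.20%, in the same order. Between windows open only at 12 days off and only at day 0, the intervals overlapped for every motif searched but AP-1. With the day 0 list limited to equal numbers they overlapped for AP-1 too (2.59 to 9.01 at day 0). Of the motifs not given here, GATA letters were in 11.5% and 8.65% of these windows and C/EBP letters in 7.29% and 11.1% in the deposited lists. The median GC content also moved with the class, at 62.3% in shared windows, 58.3% at day 0 alone and 56.7% at 12 days off alone, beside 52.7% over all windows, and its part in the motif shares was not tested. A match describes letters in a window and not binding.

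Chromosome 4 stood apart. It held 9.33% (8.56 to 10.1) of the regions open only at 12 days off, 5.34% (4.90 to 5.81) of those open only at day 0 and 7.10% (6.79 to 7.42) of shared regions. With equal numbers of summits it had 613 regions open only at 12 days off and 366 open only at day 0, so that 62.6% (59.5 to 65.7) of its differing regions were open only at 12 days off. On the other autosomes that share lay between 42.5% (chromosome 3) and 52.9% (chromosome 5). The X chromosome showed the reverse, with 93 against 170 regions, or 35.4% (29.6 to 41.5). Every one of the 8 bins of 20 Mb of chromosome 4 held more regions open only at 12 days off, by 1.31 to 2.38 times. All 9 bins of the X chromosome held fewer, by 0.25 to 0.82 times.

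Shared regions shifted the same way. When shared regions were ranked by score within each list, the median rank of those on chromosome 4 was 3.88 percentile points higher at 12 days off in the deposited lists (4.23 at equal numbers). On the X chromosome it was 6.07 points lower, on chromosome 11 it was 2.86 points lower, and on the other autosomes the medians lay between -1.61 and 1.08. The share of chromosome 4 among the top 31867 summits was 6.64% at day 0, between 6.33% and 6.51% in the 4 libraries on Dox, 6.71% and 7.31% at 4 and 8 days off and 7.46% at 12 days off. The 8 days off library was therefore also above the earlier libraries. The X chromosome took 2.09% at day 0, 1.87%, 2.02% and 2.22% at day 4, 8 and 12 on and 2.07% in CD11b-high cells. It took 1.89% and 1.86% at 4 and 8 days off and 1.87% at 12 days off. Its low share at 12 days off was therefore also seen at day 4 on. Read depth per chromosome is not analysed here, so that more copies of a chromosome and more open chromatin on it cannot be told apart.

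Leaving out chromosome 4 changed little else. Without it, 9042 regions were open only at day 0, 4859 only at 12 days off and 24297 in both, and 72.9% and 83.3% of the regions of each list were open in the other. At equal numbers the counts became 6330, 6187 and 22976, with 78.4% and 78.8%. The overlap of the lists moved from 64.65% to 64.70%.

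**Figure D2:**
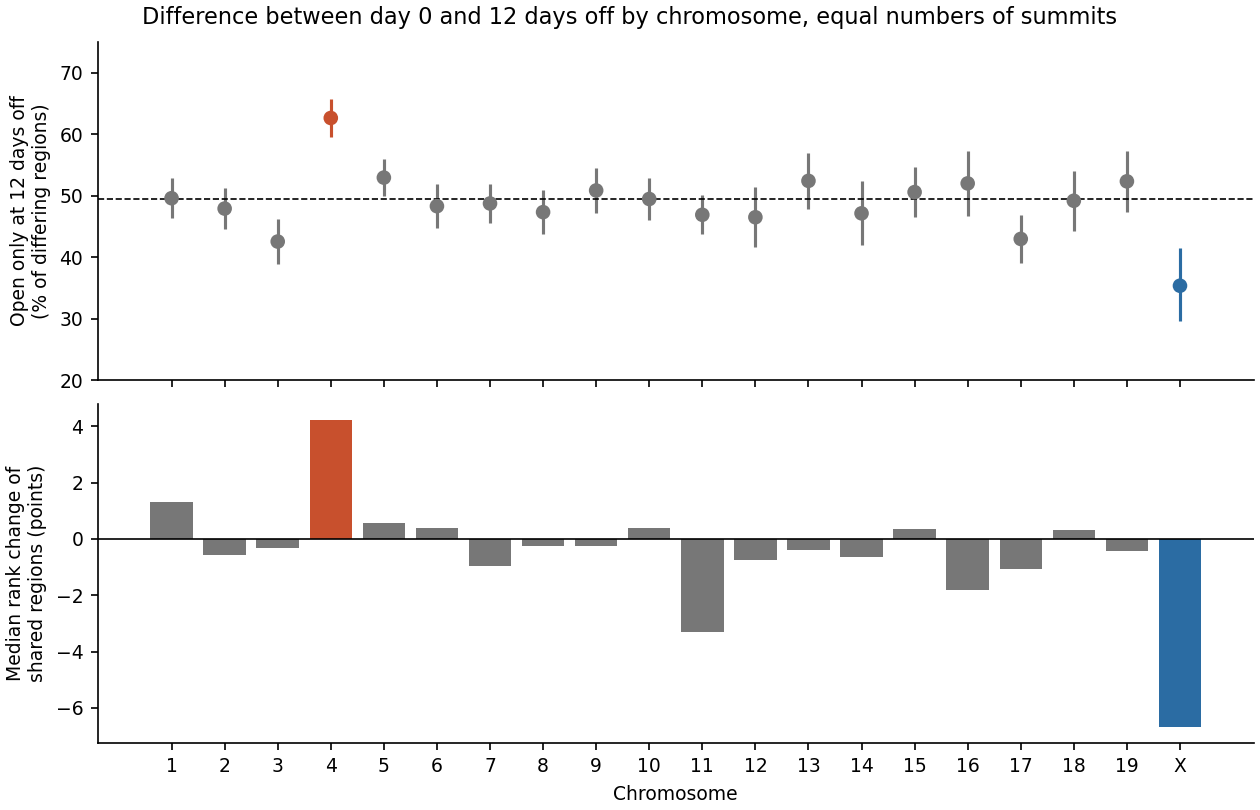
Top, share of the differing regions of each chromosome that were open only at 12 days off (percent, lines are exact 95% intervals, dashed line the share over the chromosomes shown), and bottom, median change in rank of shared regions from day 0 to 12 days off (percentile points), for equal numbers of summits. Chromosome 4 (62.6%, 4.23 points) lies above every other chromosome and X (35.4%) below; chromosome Y, with 7 regions, is left out.

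The other 6 libraries were used to see when the differing regions were open. Shared regions were open in 79.0% to 93.4% of cases in each of them. Of the regions open only at day 0, 40.4% were open at day 4 on, 51.4% at day 8, 29.5% at day 12, 31.5% in CD11b-high cells, 61.6% at 4 days off and 52.9% at 8 days off. Of the regions open only at 12 days off, 27.9%, 47.7%, 34.1%, 34.7%, 56.3% and 50.1% were. For both classes the highest shares were in the longest lists, those of 4 days off, day 8 on and 8 days off. When every list was limited to 31867 summits, regions open only at day 0 were open most often at day 4 on (44.0%, 42.8 to 45.2) and at 8 days off (41.6%). Regions open only at 12 days off were open in 26.8% (25.7 to 27.9) of cases at day 4 on, and in 38.3% and 37.7% at 4 and 8 days off. Day 4 was the library in which the classes lay farthest apart. At day 8, day 12 and in CD11b-high cells they lay within 3 points of each other.

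**Figure D3:**
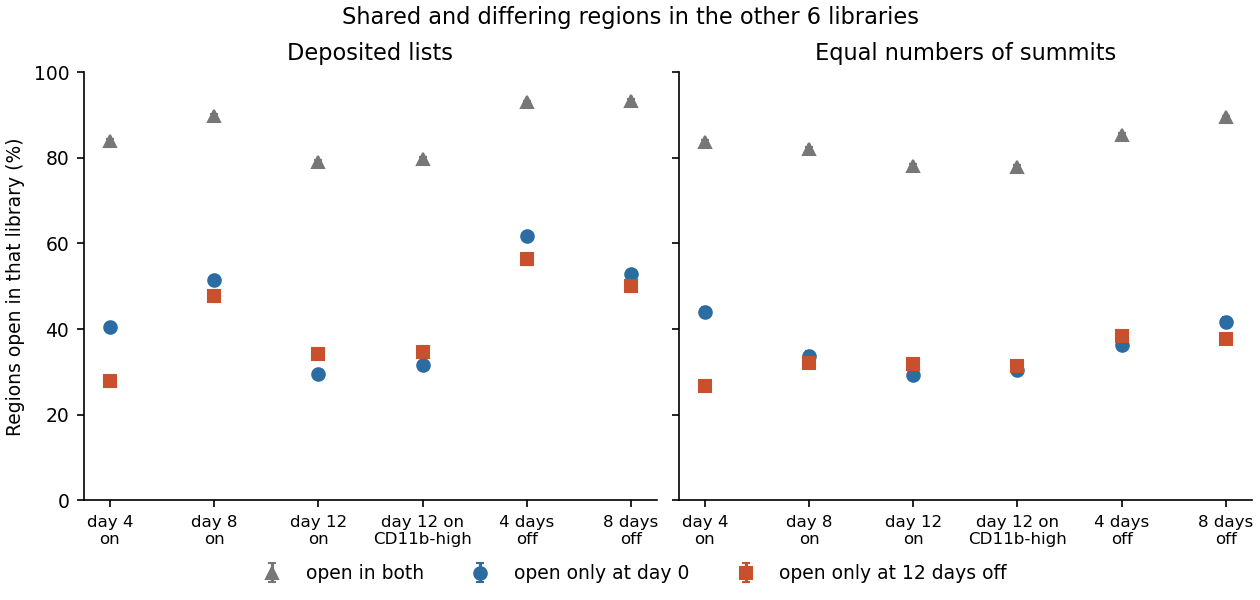
Share of regions (y axis, percent) that were open in each of the other 6 libraries (x axis), for regions open in both (triangles), only at day 0 (circles) and only at 12 days off (squares), with exact 95% intervals. At equal numbers of summits the classes of differing regions were farthest apart at day 4 on, at 44.0% and 26.8%.

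Many differing regions were called in few other libraries. In the deposited lists 1678 of the 9552 regions open only at day 0 (17.6%) and 1092 of the 5359 open only at 12 days off (20.4%) were open in none of the other 6 libraries. With every list limited to 31867 summits these were 24.8% and 33.3%. In the deposited lists a further 973 and 549 were open in all 6, so that they were missing from 1 of the 8 lists. Both classes held regions of each course. Regions open at none of day 4, 8 and 12 on and at both 4 and 8 days off were 415 of those open only at 12 days off (7.74%, 7.04 to 8.49) and 630 of those open only at day 0 (6.60%, 6.11 to 7.11). Regions open at all 3 days on and at 4 and 8 days off were 625 (11.7%, 10.8 to 12.6) and 1251 (13.1%, 12.4 to 13.8). Regions open at none of these 5 times were 1176 (21.9%, 20.8 to 23.1) and 1748 (18.3%, 17.5 to 19.1). At equal numbers these shares were 5.21% and 3.37%, 8.38% and 8.39%, and 35.3% and 26.8%, for 12 days off and day 0 in each case.

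Set beside the other pairs of libraries, day 0 and 12 days off were close but not the closest. Among the 28 pairs of lists limited to 31867 summits, theirs was the 7th highest overlap, at 64.65%. At this length day 0 shared most with 8 days off (67.48%), and 12 days off shared most with 8 days off (66.63%). The lowest overlaps of day 0 were those with day 12 on (53.6%) and with its CD11b-high cells (53.4%), and 12 days off shared 54.5% and 54.0% with them. Day 0 and 12 days off differed most in their overlap with day 4 on, at 62.9% and 58.2%. The order among the closest lists rests on list length: among the top 10000 summits day 0 shared 74.1% with day 4 on, 72.1% with 12 days off and 70.7% with 8 days off, and among the top 20000 it shared 66.0%, 67.7% and 68.2%.

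**Figure D4:**
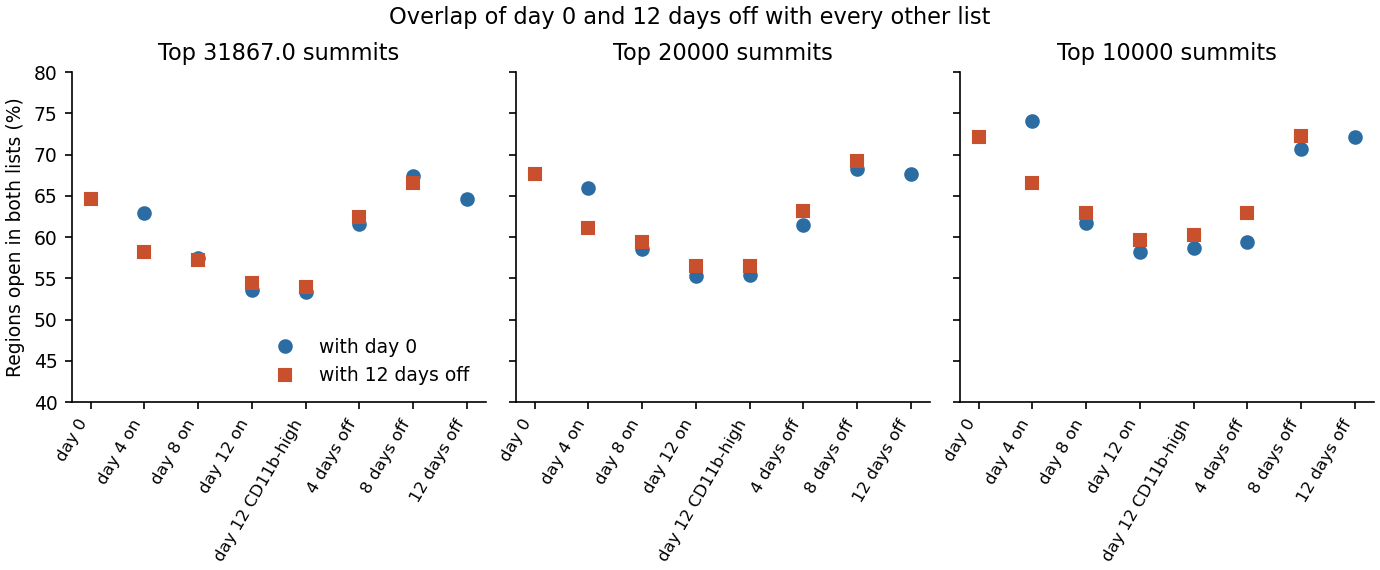
Regions open in both lists as a percentage of all regions of the pair (y axis, starting at 40) for day 0 (circles) and 12 days off (squares) with every other list (x axis), for the top 31867, 20000 and 10000 summits of each list. Both share least with day 12 on or its CD11b-high sort at 31867 summits, and day 0 exceeds 12 days off in its overlap with day 4 on at each list length.

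The strongest single differences, taken among regions with no summit of the other list within 1 kb, were led by Kmt2e and Nasp. Inside Kmt2e, a gene of the trithorax family of chromatin regulators, the region chr5:23434186-23434486 scored 32.7 at 12 days off. It had no summit at day 0, where the nearest one lay 1311 bp away, and scored 38.4, 27.7 and 24.2 at day 4, 8 and 12 on, 20.7 in CD11b-high cells and 35.4 and 29.1 at 4 and 8 days off. It was thus missing in the day 0 list alone. At Nasp, which encodes a histone chaperone, the summits of the lists lay 1227 bp apart. The region at the gene's start shown above, chr4:116627888-116628188, scored 18.4 at 12 days off, 20.4 and 6.51 at day 8 and 12 on, 20.03 in CD11b-high cells and later 22.5 at 8 days off, with no summit at day 0, day 4 or 4 days off. The region inside the gene, chr4:116626661-116626961, scored 31.2 at day 0, 15.4 at day 12 on and 8.97 in CD11b-high cells, and had no summit in the other 5 libraries. The highest-scoring differences at Nasp and Kmt2e thus lay just beyond the 1 kb limit from a summit of the other list.

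Differences farther from any summit of the other list were lower. The region 3615 bp from Myl2, a cardiac myosin light chain gene, scored 25.9 at day 0 and between 10.3 and 22.8 in the 6 libraries from day 4 on to 8 days off, and was not called at 12 days off, where the nearest summit was 29584 bp away. Near Sytl4, a gene for a vesicle-tethering protein on the X chromosome, a region scored 24.6 at day 0, 5.08, 8.51 and 9.19 at day 4, 8 and 12 on and 11.7 and 12.4 at 4 and 8 days off, with no summit at 12 days off or in CD11b-high cells. In the other direction, a region inside Cxcl12, which encodes the chemokine that retains stem cells in the bone marrow, scored 17.7 at 12 days off, 7.05, 15.1 and 10.1 at day 4, 8 and 12 on, 7.18 in CD11b-high cells and 13.9 and 9.40 at 4 and 8 days off. Its nearest day 0 summit was 25899 bp away. These regions had been called at most times between, and each was missing at day 0 or at 12 days off.

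Among genes, the number of regions open only at 12 days off minus those open only at day 0 was computed with equal numbers of summits, counting regions with no summit of the other full list within 1 kb and assigning each to whichever protein-coding gene lay nearest, up to 100 kb away. Because the full day 0 list is longer, this filter is stricter for 12 days off. The difference was highest at Cux1 (7 against 1), a homeodomain factor and myeloid tumour suppressor. Rgs3, a brake on G-protein signalling, Irf2, an interferon regulatory factor, Plcb4, a phospholipase C, Galnt2, a glycosyltransferase, and Zfp978, a zinc finger gene, had 5 against 0 each. Eml6, Col15a1, Mtus2 and Rab27b had 4 against 0. Of these 10 genes, Rgs3, Col15a1 and Zfp978 lie on chromosome 4. Zfp978 lies in a cluster of similar zinc finger genes, where the placement of reads is uncertain.

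The regions behind these counts were weak. At Cux1 the 7 regions open only at 12 days off scored between 3.07 and 8.43, and all but 1 of them were also open in at least 1 of the other libraries. The highest, chr5:136252944-136253244, also scored 13.9 at day 4 on and 7.25 and 11.1 at 4 and 8 days off. In the deposited lists Cux1 had 4 such regions open only at day 0 (2.59 to 9.98), and with a score of at least 10 it had no difference. At Plcb4, the region chr2:135811498-135811798 scored 6.93 at 12 days off, 8.51 and 7.93 at day 8 and 12 on, 6.07 in CD11b-high cells and 19.4 and 13.5 at 4 and 8 days off, and was missing at day 0 and day 4. At Mtus2, a microtubule-associated protein gene, 4 regions scored between 5.93 and 8.03 at 12 days off, and none of them was open in any library on Dox. Of the 5 regions at Zfp978, 4 were open at 12 days off alone, with scores between 1.81 and 3.99, and in the deposited lists 4 regions open only at day 0 stood against them. Rgs3 and Irf2 held the highest scores. The region chr4:62756761-62757061, which is 53892 bp from Rgs3, scored 13.4 at 12 days off and was open in no other library. At Irf2 the region chr8:46765046-46765346 scored 10.9 at 12 days off, 6.71, 25.2 and 16.1 at day 4, 8 and 12 on and 8.24 in CD11b-high cells, with no summit at day 0 or at 4 and 8 days off. Regions that appeared after Dox and regions open during it therefore stood side by side at these genes.

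The genes at the other end held more regions open only at day 0. Jazf1, a zinc finger gene, had 7 against 1, Abhd2, a lipid hydrolase, 6 against 0, Peli2, a ubiquitin ligase of Toll-like receptor signalling, 6 against 1, and Foxo1, a forkhead factor of quiescence and survival, 5 against 0. Bcas1 had 5 against 1, and Btn1a1, Gda, Septin9 and Sipa1l1 had 4 against 0. At Foxo1 the 5 regions scored between 6.68 and 9.37 at day 0, none was called at day 12 on or at 12 days off, and 4 of them were open at 8 days off. The region chr3:52243691-52243991, for example, scored 6.68 at day 0, 10.4 and 3.85 at day 4 and 8 on, 6.65 in CD11b-high cells and 15.5 and 7.54 at 4 and 8 days off.

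At Gda, which encodes guanine deaminase, the differing regions scored higher, and 3 of the 4 passed a score of 10. The region chr19:21461285-21461585 scored 12.1 at day 0, 27.4, 26.9 and 16.004 at day 4, 8 and 12 on, 18.7 in CD11b-high cells, and 28.9 and 12.4 at 4 and 8 days off. It was missing at 12 days off alone. The region chr19:21440862-21441162 scored 14.2 at day 0 and was likewise open in all of the other 6 libraries. The remaining Gda regions, with 12.1 and 6.33 at day 0, were also open at 4 days off (5.78 and 11.7). At Septin9, a cytoskeletal GTPase gene, the region chr11:117238199-117238499 scored 22.3 at day 0, 14.9 and 18.2 at day 4 and 8 on and 12.4 at 8 days off, and had no summit at day 12 on, in CD11b-high cells or at 4 and 12 days off. At Btn1a1, a butyrophilin gene, the region chr13:23445791-23446091 scored 16.3 at day 0, 20.2 and 8.98 at day 4 and 8 on, 5.09 in CD11b-high cells and 25.4 and 16.8 at 4 and 8 days off. Over the 10 genes with the lowest difference, 40 of 57 regions open only at day 0 (70.2%) were open at 8 days off. This share was 52.9% over all regions open only at day 0 and 58.7% over those at equal numbers. The genes were chosen by regions that passed the equal-number and 1 kb limits, so these shares are not on like terms. Their difference was not tested.

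The 7 genes chosen for their part in PU.1-driven differentiation and in progenitors held 28 regions, of which 12 (42.9%) were open in a single list; over all regions 63.7% were shared. Spi1 itself had 3 shared regions, which ranked higher among shared regions at 12 days off (from percentile 68.0 to 79.5, from 6.29 to 18.999 and from 68.5 to 79.6). The region chr2:91082872-91083208, within the annotated span of Spi1, scored 28.3 at day 0, 35.4, 39.8 and 21.8 at day 4, 8 and 12 on, 17.1 in CD11b-high cells, 45.3 and 34.8 at 4 and 8 days off and 26.2 at 12 days off. The only difference was chr2:91113446-91113746, which scored 4.72 at 12 days off, 18.03 and 5.17 at 4 and 8 days off, 7.43 and 6.82 at day 8 and 12 on, and was not called at day 0, day 4 or in CD11b-high cells. Itgam, which encodes CD11b, had 1 shared region (20.2 at day 0 and 22.7 at 12 days off). It also had a region 4068 bp from the gene, chr7:128058422-128058722, that was open at 4, 8 and 12 days off (9.12, 3.96 and 8.38) and at no earlier time. Csf1r, the receptor for macrophage colony-stimulating factor, had a single region, open at 4 days off (4.49) and 12 days off (4.38).

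Cd34, a surface marker of progenitors, had 4 differing regions of 7. Its regions chr1:194943556-194943856 and chr1:194962232-194962532 had no summit at day 0 and were open in all 7 later libraries, the former with 10.3, 28.7 and 23.4 at day 4, 8 and 12 on, 25.7 in CD11b-high cells, 16.5 and 10.96 at 4 and 8 days off and 10.3 at 12 days off. A further pair of Cd34 regions, with 48.3 at day 0 and 28.8 at 12 days off, lay 308 bp apart. The shared region chr1:194995244-194995553 went from percentile 50.6 to 75.6 among shared regions. At Kit, the stem cell factor receptor, 2 regions were shared. The third, chr5:75575655-75575955, scored 20.5 at 12 days off, 26.1 at day 12 on, 17.2 in CD11b-high cells and later 32.4 at 4 days off, and lay 911 bp from a day 0 summit. Gfi1, a repressor that steers granulocyte fate, had 2 shared regions, 3 open only at day 0 and 1 only at 12 days off, and each of the latter 4 lay within 1 kb of a summit of the other list.

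All 5 regions of Myc, the growth-promoting factor, were shared, but 3 of them ranked lower at 12 days off. The region chr15:61983282-61983686 scored 24.0 at day 0, 25.1 and 10.6 at day 4 and 8 on, 7.36 in CD11b-high cells, 7.64 and 10.7 at 4 and 8 days off and 10.0 at 12 days off, and was not called at day 12 on. Its percentile among shared regions went from 62.7 to 41.3. The region chr15:62037829-62038130 went from 36.9 to 10.3, and that at chr15:61986973-61987284 from 23.9 to 7.25. The remaining Myc regions went from 75.7 to 77.1 and from 33.3 to 48.4. Over all 26154 shared regions the ranks of the lists correlated at 0.855 across regions, a description of points that share both libraries, and 55.3% of regions moved by at most 10 points. Only 1546 (5.91%) moved up and 1487 (5.69%) moved down by 25 points or more.

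Gene groups were compared with 17.7% of regions open only at day 0 and 17.3% only at 12 days off among the 36545 regions assigned to any gene, at equal numbers of summits. The groups cover 290 genes found in the gene table. The stem and progenitor group had 6 regions open only at day 0 (8.96%, 3.36 to 18.5) and 20 only at 12 days off (29.9%, 19.3 to 42.3) among 67. The 20 were spread over 11 of its 20 genes, with 4 at the tetraspanin gene Cd9, 3 each at Cd34 and the ETS factor gene Erg, 2 each at Angpt1 and Lmo2, and 1 each at Kit, Flt3, Prom1, Ly6a, Bmi1 and Sox4. In the deposited lists the counts were 12 and 16 of 73, against 22.9% and 12.9% over all genes. At equal numbers, where a summit of the other full list within 1 kb was not allowed, they were 4 and 7, beside 5339 and 3386 over all genes. With this limit set between the lists of equal length they were 4 and 11, beside 5339 and 4583 over all genes. With a score of at least 10 the order turned, at 14 and 7, beside 5721 and 1633 over all genes. The strongest of the 20 lay in Cd9, chr6:125481695-125481995, which scored 16.5 at 12 days off, 26.3, 21.6 and 10.3 at day 4, 8 and 12 on, 11.5 in CD11b-high cells and 34.5 and 17.3 at 4 and 8 days off, and was 580 bp from a day 0 summit. In Angpt1, the gene of an angiopoietin, chr15:42520862-42521162 scored 7.07 at 12 days off, 13.2 and 27.1 at day 4 and 8 on and 16.1 and 12.1 at 4 and 8 days off, with no day 0 summit nearby. The shared Erg region chr16:95415942-95416293 went from percentile 8.45 to 60.1. The median rank of this group's 45 shared regions moved by 1.19 points.

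Known PU.1 targets had 12 regions open only at day 0 (17.6%, 9.47 to 28.8) and 19 only at 12 days off (27.9%, 17.7 to 40.1) among 68, and 16 and 16 of 72 in the deposited lists. With a score of at least 10 they had 10 and 4, beside 5721 and 1633 over all genes. Of the 19, 5 lay at Syk, the kinase that signals from Fc receptors and integrins, with scores between 2.16 and 5.96. Each of these was also open at 4 days off, and 3 also at day 8 on and at 8 days off. Itgb2, the partner chain of CD11b, had 3 regions open only at day 0 and 1 only at 12 days off. A region at Fcgr3, a receptor for IgG, chr1:171059233-171059533, scored 13.5 at 12 days off, 20.9, 20.5 and 8.56 at day 4, 8 and 12 on, 11.8 in CD11b-high cells and 22.4 and 14.6 at 4 and 8 days off. It lay 1242 bp from the nearest day 0 summit.

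Markers of mature myeloid cells went both ways. The monocyte and macrophage group had 8 and 11 differing regions of 36 (22.2%, 10.1 to 39.2, and 30.6%, 16.3 to 48.1). The neutrophil and granulocyte group had 7 and 8 of 26 (26.9%, 11.6 to 47.8, and 30.8%, 14.3 to 51.8). Each of these intervals held the share over all genes. Ltf, the lactoferrin gene, had a region with 8.95 at 12 days off and 18.4, 38.6 and 25.6 at day 4, 8 and 12 on, and 49.5 and 30.5 at 4 and 8 days off, missing at day 0. Mmp9, a neutrophil gelatinase, had a region with 10.1 at day 0, 9.13, 10.4 and 7.38 at day 4, 8 and 12 on and 15.7 and 14.3 at 4 and 8 days off, missing at 12 days off. Ly6c2, a monocyte surface marker, had 2 regions open only at day 0, with 12.5 and 14.4. The groups of myeloid transcription factors (12 and 13 of 85) and of inflammatory and cytokine genes (12 and 16 of 72) were near the share over all genes.

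Interferon response genes had intervals that held the shares over all genes. They had 7 regions open only at day 0 (25%, 10.7 to 44.9) and 4 only at 12 days off (14.3%, 4.03 to 32.7) among 28, and 11 and 2 of 32 in the deposited lists, with 3 and 0 at a score of at least 10. Irf7, the master regulator of interferon production, had 3 regions at day 0, with 6.82, 8.32 and 4.90, and none at 12 days off. The last of these, chr7:141266307-141266607, was open in each of the other 6 libraries, with 19.4, 15.1 and 6.29 at day 4, 8 and 12 on. Irf1 had 4 regions open only at day 0 in the deposited lists and 1 at equal numbers. The median rank of the group's 19 shared regions moved by -3.13 points, beside -0.15 over all genes.

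Few regions of survival genes differed. That group had 5 and 3 of 48 (10.4%, 3.47 to 22.7, and 6.25%, 1.31 to 17.2), and Bcl2, Bcl2l1 and Bcl2l11 had 13 shared regions and no other. Ranks within Bcl2 moved apart, with chr1:106712394-106712725 going from 20.2 to 67.4 and chr1:106511587-106511909 from 54.3 to 21.7. The ETS, RUNX and GATA group had 17 and 26 of 121 (14.05%, 8.403 to 21.5, and 21.5%, 14.5 to 29.9), and 29 and 21 of 133 in the deposited lists. Etv6 had 4 regions open only at 12 days off and Ets2 had 4 open only at day 0. The cell cycle group had 12 and 15 of 83, of which 7 open only at 12 days off lay at Cdk6, the kinase of the G1 phase. The kinase inhibitor genes Cdkn2b and Cdkn2c, both on chromosome 4, had 2 and 3 regions open only at 12 days off and 1 each at day 0.

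Groups of other lineages stood near the share over all genes or held few regions. Erythroid genes had 4 and 3 of 18, megakaryocyte genes 7 and 7 of 38, mast cell and basophil genes 3 and 3 of 14, eosinophil genes 1 and 2 of 10 and dendritic cell genes 6 and 5 of 37. T cell genes had 11 and 9 of 48 and B cell genes 7 and 7 of 23. Housekeeping genes had 7 and 8 of 46, and genes of tissues other than blood 5 and 5 of 26. The B cell group's 12 shared regions moved by a median of 10.1 points, 4 of them up by 25 points or more, among which were regions of Bach2 (percentile 0.973 to 38.2) and Pax5 (10.4 to 36.1), both on chromosome 4.

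**Figure D5:**
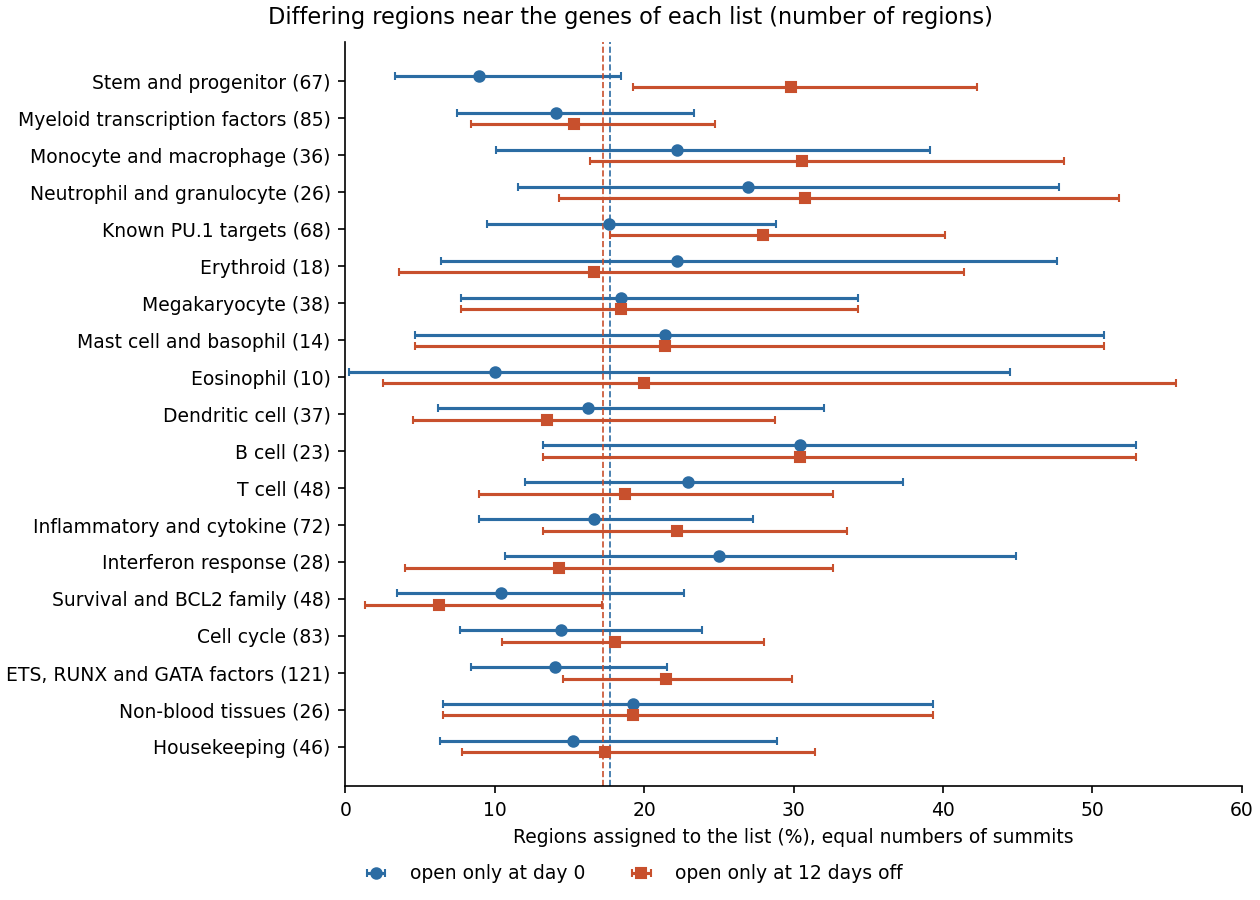
Share of the regions assigned to each gene group (x axis, percent, equal numbers of summits) that were open only at day 0 (circles) or only at 12 days off (squares), with exact 95% intervals; the number of regions stands in brackets. Dashed lines mark the shares over all genes, 17.7% and 17.3%. At 12 days off, the intervals of the stem and progenitor group (19.3 to 42.3) and of known PU.1 targets (17.7 to 40.1) lie above the line, the latter only just. Of the 19 regions of known PU.1 targets, 5 lay at Syk. Intervals are drawn for every group and both classes, so some can miss the line by counting error alone. That of the survival group (1.31 to 17.2) lies just below it.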

How the data were processed

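ATAC-seq summit lists of 8 libraries, 1 per group, were analysed. Column 5 of the deposited lists, on the build mm10 with MACS2 and Picard 2.14.0 per the submitters' processing notes, was read as −log10 (of p or q), because the lowest score lay near −log10 of 0.05. Of the aligner, its settings, the version of MACS2 and the depth of sequencing nothing is stated in the sources used, so the precision of a call is unknown. The extraction protocol in the labels also mentions ChIP, and the libraries were taken as ATAC-seq. No columns of unassigned samples were used (0).

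Summits on the 19 autosomes, X and Y were extended by 150 bp and merged over the day 0 and 12 days off lists. Other lists were intersected with these regions. Equal numbers means the 31867 top-score summits of a list (29489 without chromosome 4). Regions were assigned to the nearest of 21887 protein-coding genes of the RefSeq table (GRCm38.p6) within 100 kb of the gene span. Of 292 genes in 19 lists, 290 matched; counts of a gene in several lists enter each. Promoter windows came from RefSeq sequences of the same build, and each was matched by its coordinates. Ranks of shared regions are percentiles of the score among the shared regions of a list. There was no test, since each group held 1 library.

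Named genes were the 10 highest and 10 lowest by difference in regions open in a single list (ties, 9 genes at 4 and 26 at -4, were settled by the summed score percentile), up to 4 genes of each gene list, and Spi1, Itgam, Kit, Csf1r, Cd34, Myc and Gfi1; named regions were the 8 best-scoring each way. Items withheld from the text are not reported here. Further list genes were named after their values were seen. The regions, genes and lists were chosen with earlier results of these data known. Alternatives were list length, chromosome 4, a score of at least 10, extension by 75 or 250 bp, nearby summits and gene distance (20 kb). Scripts used Python 3.11.15, numpy 2.4.6, pandas 2.3.3, scipy 1.17.1 and matplotlib 3.10.9 and were tested on simulated data.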

Additional observations from a re-analysis of the deposited data

How the results depend on the processing

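A score of at least 10 moved more of the main results than any other choice (9 of 10). With both lists cut at a score of at least 10, 6026 regions were open only at day 0 and 1726 only at 12 days off. Of these, 4911 and 1598 had a summit of the other full list within 1 kb. Such a region may thus have been called in the other list below the cut. In the deposited lists, 1611 and 654 of the regions open in a single list scored at least 10. The cut uses 1 score for lists with medians of 11.5 and 10.1, so it is not a comparison by rank. With equal numbers without chromosome 4, 6330 were open only at day 0. The share of day 0 regions open at 12 days off was 78.3% at equal numbers (78.4% also without chromosome 4), 70.4% at a score of at least 10, and 68.2% and 75.4% with summits extended by 75 and 250 bp. The reverse share was 78.7%, 78.8%, 89.2%, 77.1% and 86.1% in the same order. The share near a gene end among regions open only at day 0 was 20.9% at a score of at least 10, 17.3% and 10.7% with 75 and 250 bp, and 8.17% without a nearby summit. Among regions open only at 12 days off it was 19.4% at equal numbers, 19.8% also without chromosome 4, 27.0%, 25.5%, 13.4% and 7.23%. Chromosome 4 held 4.80% of the regions open only at day 0 at a score of at least 10, and 10.5% of those open only at 12 days off without a nearby summit. The share of regions open only at day 0 that were open in the full list of 8 days off was 58.7% at equal numbers, 58.8% also without chromosome 4, 86.2% at a score of at least 10, 45.3% and 57.3% with 75 and 250 bp and 54.6% without a nearby summit. For regions open only at 12 days off it was 55.0%, 55.4%, 78.2%, 39.6%, 57.0% and 55.4%. The overlap of the lists was 72.1% and 67.7% for the top 10000 and 20000 summits, an alternative added after seeing the data, as was the 1 kb limit between lists of equal length. The cause was not tested. Leaving out chromosome 4 alone moved none of 9 results, and the shares of regions among them stayed within their intervals. The counts open in a single list, which carry no interval, went from 9552 to 9042 and from 5359 to 4859. Of the 20 genes named by their difference, 2 moved in the deposited lists, 19 at a score of at least 10, 6 within 20 kb and none when nearby summits were counted. Of the 38 gene group counts, 11 moved at equal numbers, 29 at a score of at least 10, 6 without nearby summits and 4 within 20 kb. In gene groups, the order of the counts open only at day 0 and only at 12 days off depended on the setting. Against equal numbers it was opposite in 7 of 19 groups in the deposited lists and in 9 at a score of at least 10. Among them were the ETS, RUNX and GATA group (29 and 21 deposited, against 17 and 26). Known PU.1 targets had 10 and 4 at a score of at least 10, against 12 and 19. Over all genes the counts leaned to day 0 in the same settings, at 8958 and 5038 deposited and 5721 and 1633 at a score of at least 10. The change of order is therefore not particular to these groups. Of the 20 genes, none turned to the opposite sign. Among list genes Ccnd2 did, from -2 to 1 at a score of at least 10. At that score no difference was left at Cux1, Plcb4, Galnt2, Zfp978, Eml6, Mtus2, Rab27b, Abhd2, Foxo1 and Peli2. No paired analysis was possible because each group held 1 library. Depth limits every statement on a region that was not called.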

Other observations

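The regions that differed were mostly scattered, with a few runs of neighbours open in the same list at equal numbers of summits. The longest run open only at 12 days off held 8 regions in 41.7 kb between Diras2 and Syk, chr13:52530581-52572297. Runs of 5 or 6 open only at 12 days off lay at Zfp978 and Zfp991, Zfp600 and Nfia, all on chromosome 4, and at Cnksr3 and Ipcef1 and at Aopep. The zinc finger clusters hold similar copies, so the placement of reads there is uncertain. Of the runs open only at day 0, 1 of 6 regions spanned 219 kb of chromosome 17 around Tpsb2, Prss29 and Prss34, which encode mast cell and related serine proteases. Runs of 5 lay at Sema5a and at Bcas1. In windows of 2 Mb, 83 of 1249 had at least 6 more regions open only at 12 days off than only at day 0, and 21 of these were on chromosome 4. A further 86 had at least 6 fewer, of which 2 were on the X chromosome.

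The shared regions that moved most in rank were chosen after their values were seen. A region at Agap1, a regulator of membrane traffic, scored 5.25 at day 0, 7.43, 18.1 and 22.5 at day 4, 8 and 12 on, 42.7 and 25.6 at 4 and 8 days off and 22.9 at 12 days off, and its percentile among shared regions went from 7.16 to 74.4. A region at Sema4b, a semaphorin gene, was open apart from these lists only at 4 days off (3.35), and went from 4.98 at day 0 to 19.4 at 12 days off. In the other direction, a region at Nkx2-3, a homeobox gene, scored 31.0 at day 0, 25.5, 17.1 and 8.65 at day 4, 8 and 12 on, 12.6 and 8.54 at 4 and 8 days off and 4.03 at 12 days off. The shared region of Hoxa9, a homeobox gene of leukaemic self-renewal, scored 24.0 at day 0, 20.1, 20.4 and 6.54 at day 4, 8 and 12 on, 17.7 and 18.2 at 4 and 8 days off and 5.66 at 12 days off. At Egr2, an immediate early factor of macrophage fate, a shared region scored 5.06 at day 0, 24.5 and 20.2 at 4 and 8 days off and 13.9 at 12 days off, and its percentile went from 6.61 to 55.0. At Tcf7, a factor of the Wnt pathway, a shared region went from percentile 53.2 to 2.68.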
